A study of Arabidopsis thaliana with 6 samples.

Results

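The chloroplast of Arabidopsis thaliana makes its own proteins on a ribosome of bacterial type, and most of the protein parts of that ribosome are encoded in the nucleus. The genes described here are the nuclear genes for proteins of its large subunit, of its small subunit and of its plastid-specific additions. They were chosen by locus, from a fixed list of 40 loci, and 39 of the 26402 genes in the deposited table are on that list. The choice was made with earlier results of these data known. The list holds 24 large subunit genes, 9 small subunit genes and 7 plastid-specific genes, and the remaining locus, PSRP2 (AT3G52150), was not analysed here.

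The chloroplast ribosome translates the messages of the plastid genome, among them the large subunit of Rubisco and core proteins of both photosystems. Its nuclear-encoded proteins are made in the cytosol, imported and built onto plastid ribosomal RNA together with a smaller set of ribosomal proteins that the plastid genome encodes itself. Loss of many of these proteins in Arabidopsis stops embryo development, which is why the reference names several of the genes EMB, and milder defects give pale leaves.

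Whole leaves of wild-type Columbia (Col-0) plants, 4 weeks old, that had grown at 380 ppm CO2 (normal CO2) or at 100 ppm CO2 (low CO2) were profiled by RNA sequencing. The labels name 6 samples, 3 for each CO2 level, all from soil-grown plants kept under 16 h of light and 8 h of dark at 21 °C and 70% relative humidity. The table gives 1 column per CO2 level in RPKM, reads scaled to the coding length of a gene and to the depth, and no column for a single replicate. No difference between the columns therefore has a replicate check, no test of the CO2 effect could be made, and each value below is the authors' value for a column, with no SD.

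The depth recovered from the values was 25429325 reads at normal CO2 and 21887516 reads at low CO2. On 1 kb of coding length 1 read was worth 0.0393 RPKM under normal CO2 and 0.0457 RPKM under low CO2. Ratios are low over normal CO2, and their 95% intervals are exact Clopper-Pearson intervals that cover counting error only. A gene was called past 2-fold from the log2 difference between the columns after 1 RPKM had been added to each value, among the 16563 genes that averaged 1 RPKM or more, which are the genes counted here. The leaf label fitted the levels of the leaf genes RBCS1A (10462.5 and 24998.5 RPKM at normal and low CO2) and LHCB1.3 (6714 and 14247 RPKM), while the seed genes CRA1 and OLEO1 and the root hair gene COBL9 were listed at 0 in both columns. The other markers of root and flower lay between 0 and 1.92 RPKM. In whole leaves, fewer cells of a type and less RNA per cell cannot be told apart.

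Genes for plastid ribosomal proteins were higher at low CO2 almost throughout the list. Of the 39 genes 38 had a higher RPKM in the low CO2 column, and the counting interval of the ratio lay wholly above 1 for those 38 genes. PSRP3/2 was the exception, lower at low CO2 with an interval that held 1. Among all counted genes 45.6% were higher and 54.4% lower at low CO2. The interval lay above 1 for 31.9% and below 1 for 40.2% of those with recovered reads. The median log2 difference of the 39 genes was 0.78, a ratio of 1.72, against -0.06 for all counted genes. The 4 leaf marker genes were also higher at low CO2, 3 of them at least 2-fold. Their summed reads took 2.06% and 3.75% of the depth at normal and low CO2, a ratio of 1.81 (1.81 to 1.82). CA1, a plastid carbonic anhydrase, went from 264 to 2272 RPKM and RCA, Rubisco activase, from 6572 to 7210 RPKM. Their part in the difference of the ribosomal protein genes was not tested.

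The differences were mostly moderate. Of the 39 genes 8 were at least 2-fold higher, against 6.07% of all counted genes, and none was at least 2-fold lower, against 11.1%. The plain ratio lay between 1 and 1.5 for 9 genes, between 1.5 and 2 for 20 genes and at 2 or more for 9 genes. The whole counting interval lay above 2 for 6 genes (PSRP1, PSRP3/1, PRPL15, PRPS21, PRPS10 and PRPL4), against 5.05% of counted genes with reads.

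Together the 39 genes took 91165 reads at normal CO2 and 134527 reads at low CO2. As a share of the depth that was 0.359% and 0.615%, a ratio of 1.71 (1.70 to 1.73). Summed per length they stood at 5760 RPKM under normal CO2 and 9911 RPKM under low CO2. PSRP3/2 had the fewest reads, 137 and 99, and the other 38 genes had at least 1051 reads under normal CO2 and 1610 under low CO2.

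**Figure D1:**
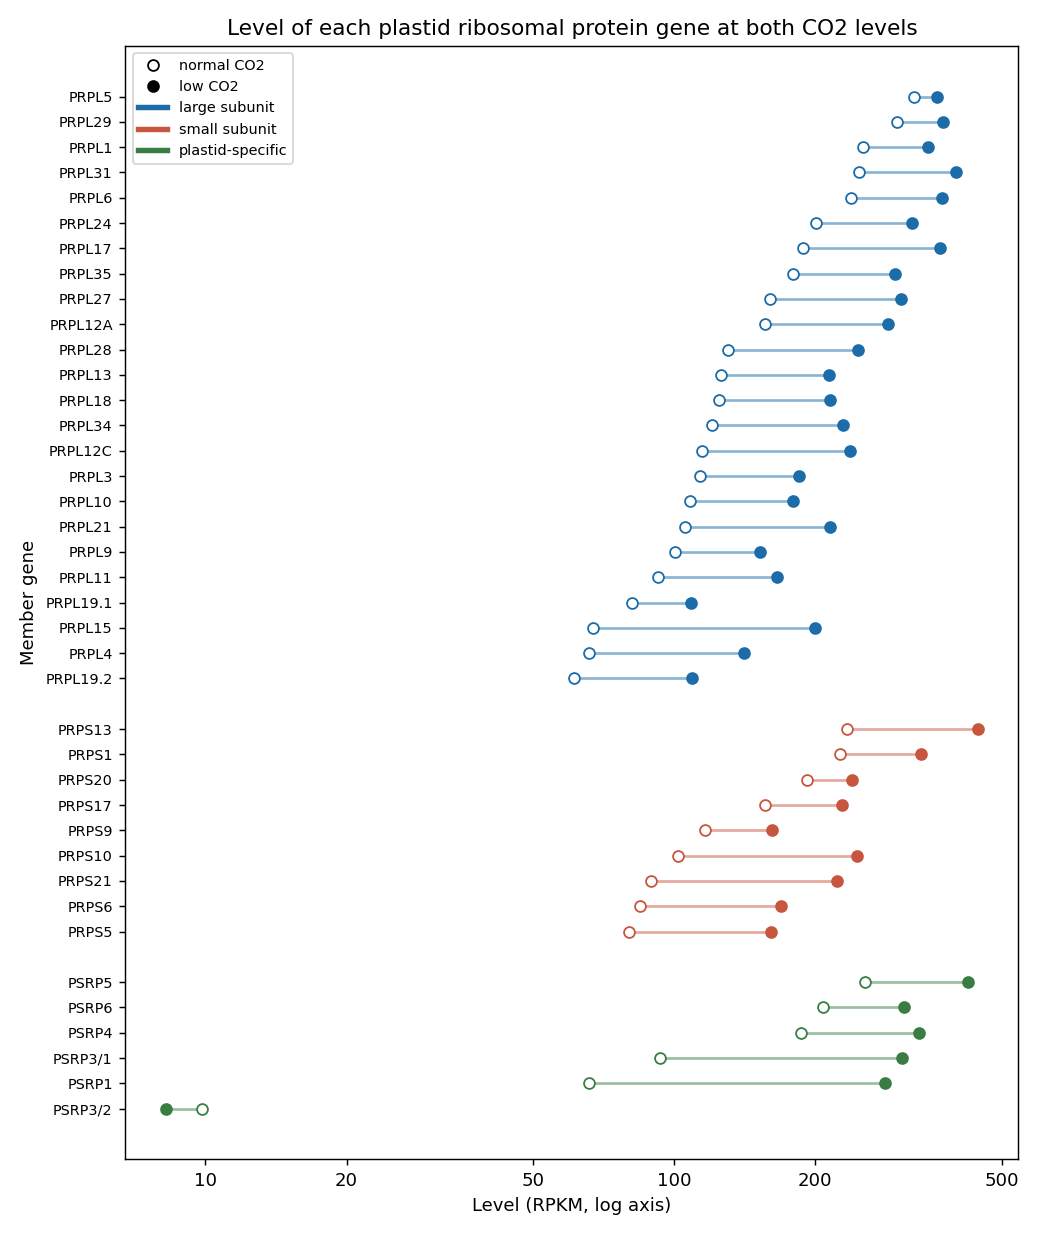
Level in RPKM (log axis) of each of the 39 genes at normal CO2 (open points) and low CO2 (filled points), grouped by role and ordered by level at normal CO2. The filled point lies to the right of the open point for 38 genes, and PSRP3/2, at 9.81 and 8.24 RPKM, stands far below the others.

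The plastid-specific proteins held the genes with the highest ratios and also the exception. These proteins have no counterpart among the standard proteins of the Escherichia coli ribosome. PSRP1 (AT5G24490), related to bacterial factors that bind and store idle ribosomes, was at 65.9 RPKM under normal CO2 and 282 RPKM under low CO2, 4.28-fold higher (4.05 to 4.53). It was 36th of the 39 genes in level at normal CO2 and 17th at low CO2, and its log2 difference exceeded that of 98.7% of counted genes.

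PSRP3 belongs to a family, Ycf65, that is also found in cyanobacteria, and Arabidopsis has a pair of genes for it that stood apart from each other. PSRP3/1 (AT1G68590) was at 93.2 RPKM under normal CO2 and 307 RPKM under low CO2, 3.30-fold higher (3.08 to 3.53). PSRP3/2 (AT5G15760) was at 9.81 and 8.24 RPKM, with a ratio of 0.840 (0.642 to 1.10), so its difference was not detectable at this depth. The intervals of the pair did not overlap, and PSRP3/1 supplied most of the pair's reads in both columns: 1159 of 1296 reads at normal CO2 and 3289 of 3388 at low CO2. The coding sequences of the pair are identical at 69.2% of 487 aligned bases in the TAIR10.1 reference, with a longest identical run of 33 bases.

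The other plastid-specific genes were abundant and had lower ratios. PSRP4 (AT2G38140), a small subunit protein related to the bacterial protein THX, was at 187 and 333 RPKM, with a ratio of 1.78 (1.68 to 1.90). PSRP5 (AT3G56910), of the large subunit, was at 256 and 423 RPKM, with a ratio of 1.65 (1.58 to 1.73), and was the second most abundant gene of the list at low CO2. PSRP6 (AT5G17870), also of the large subunit, was at 208 and 309 RPKM, with a ratio of 1.48 (1.39 to 1.58).

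As a group the plastid-specific genes took 14.2% of the summed RPKM of the list at normal CO2 and 16.8% at low CO2. The ratio of their summed read shares was 2.29 (2.23 to 2.35). Without PSRP1 and PSRP3/1, left out after their values were seen, it was 1.63 (1.57 to 1.68), close to the 1.64 (1.62 to 1.65) of the large subunit and the 1.69 (1.66 to 1.72) of the small subunit. The median log2 difference was 0.78 for 6 plastid-specific genes.

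**Figure D2:**
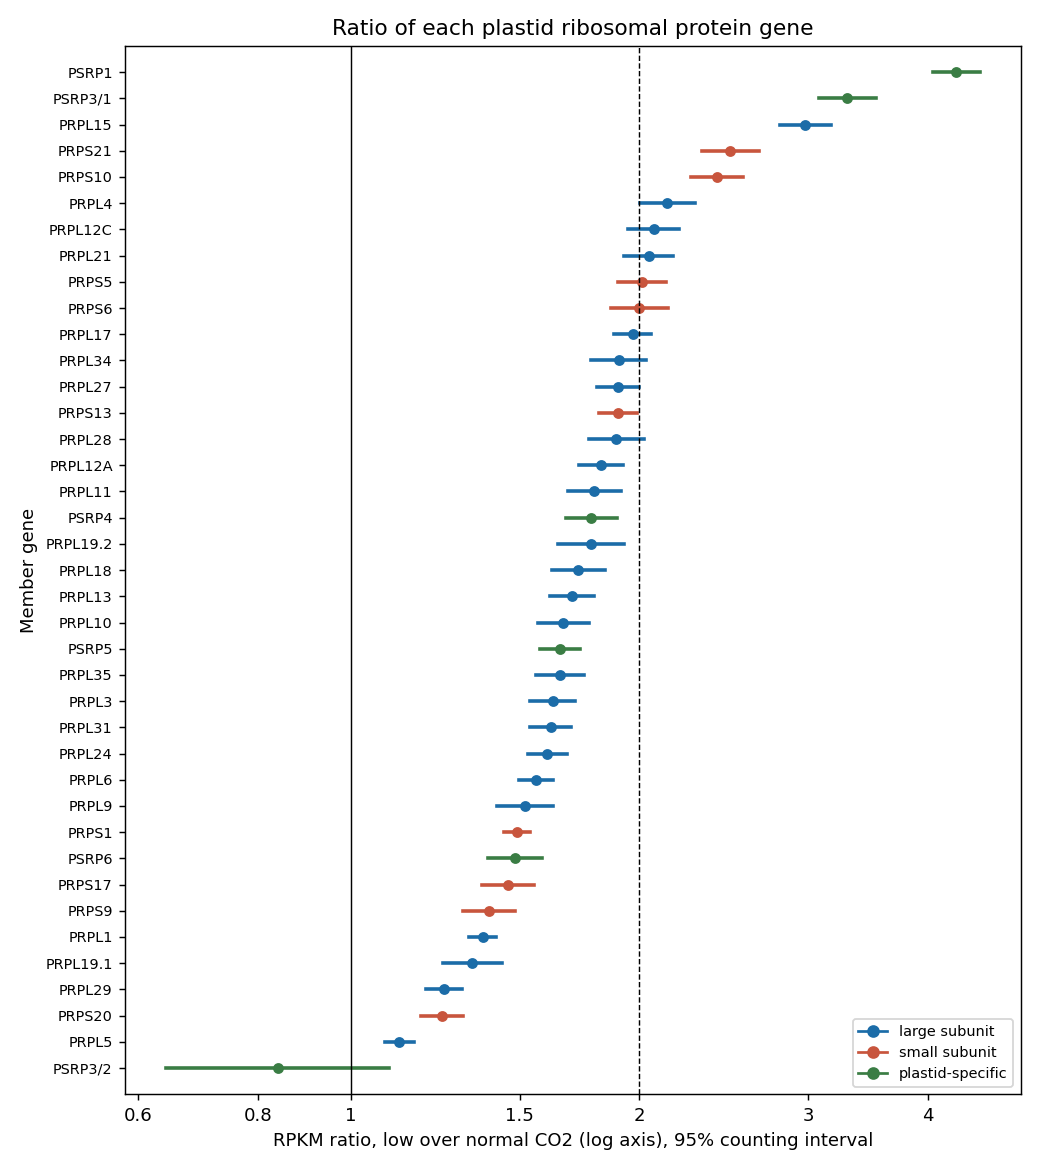
RPKM ratio of low over normal CO2 (log axis) of each of the 39 genes, ordered by ratio, with bars for the 95% counting interval, a solid line at 1 and a dashed line at 2. PSRP1 at 4.28 and PSRP3/1 at 3.30 lie farthest to the right, and the bar of PSRP3/2 is the one that crosses 1.

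The 9 small subunit genes were all higher at low CO2, and 2 of them passed 2-fold. Their median log2 difference was 0.92, and they ranged from 0.32 to 1.31. PRPS21 (AT3G27160), known as GHS1 from a mutant that is hypersensitive to glucose, was at 89.5 RPKM under normal CO2 and 223 RPKM under low CO2, 2.49-fold higher (2.33 to 2.66). PRPS10 (AT3G13120), a protein of the head of the subunit, was at 102 and 246 RPKM, 2.41-fold higher (2.27 to 2.57).

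A pair of small subunit genes lay at the edge of the 2-fold rule. PRPS5 (AT2G33800), a protein that in Escherichia coli bears on the accuracy of decoding, was at 80.2 and 161 RPKM, a plain ratio of 2.01 (1.90 to 2.13). PRPS6 (AT1G64510), a protein of the platform of the subunit, was at 84.5 and 169 RPKM, with a ratio of 2.00 (1.87 to 2.14). Before rounding, the plain ratio of PRPS6 was 1.99965, already under 2. Once 1 RPKM was added to each value both genes lay just under 2-fold (0.999 and 0.991 on the log2 scale), so the rule did not count them.

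PRPS13 (AT5G14320), which in Escherichia coli touches the transfer RNA from the head of the subunit, was the most abundant gene of the whole list at low CO2. It was at 234 RPKM under normal CO2 and 445 RPKM under low CO2, a ratio of 1.90 (1.82 to 1.99), and had been 7th in level at normal CO2. PRPS1 (AT5G30510), whose bacterial relative binds messenger RNA, was at 226 and 336 RPKM, with a ratio of 1.49 (1.44 to 1.54).

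The small subunit genes with the lowest ratios were those for PRPS17, PRPS9 and PRPS20. PRPS17 (AT1G79850), an rRNA-binding protein, was at 156 and 228 RPKM, with a ratio of 1.46 (1.37 to 1.55). PRPS9 (AT1G74970), another protein of the head, was at 116 and 162 RPKM, with a ratio of 1.39 (1.31 to 1.48). PRPS20 (AT3G15190), an rRNA-binding protein, was at 192 and 239 RPKM, with a ratio of 1.25 (1.18 to 1.31). It went from 11th to 20th in level within the list.

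All 24 large subunit genes were higher at low CO2, with 4 at least 2-fold higher and 20 within 2-fold. Their median log2 difference was 0.77, with a range from 0.17 to 1.56. PRPL15 (AT3G25920), a protein of the core of the subunit, led them at 67.2 RPKM under normal CO2 and 200 RPKM under low CO2, 2.98-fold higher (2.80 to 3.17). PRPL4 (AT1G07320), a protein that in Escherichia coli reaches into the tunnel through which the new chain leaves, was at 65.9 and 141 RPKM, 2.14-fold higher (2.00 to 2.29). PRPL21 (AT1G35680), which binds the large rRNA, was at 105 and 215 RPKM, 2.04-fold higher (1.93 to 2.17).

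The stalks of the large subunit are mobile arms, one of which calls in the translation factors. PRPL12 forms the tip of that factor-binding stalk in several copies, and the nucleus holds neighbouring genes for it. PRPL12C (AT3G27850) was at 114 RPKM under normal CO2 and 237 RPKM under low CO2, 2.07-fold higher (1.95 to 2.2). PRPL12A (AT3G27830) was at 156 and 286 RPKM, with a ratio of 1.83 (1.73 to 1.92). Their coding sequences are identical at 93.4% of 564 aligned bases in the reference, with an identical run of 255 bases, so counting may have split reads between them and single values are uncertain. Summed, the pair had 3912 and 6490 reads, a ratio of shares of 1.93 (1.85 to 2.01).

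PRPL10 and PRPL11, further proteins of the factor-binding stalk, lay a little below PRPL12 in ratio. PRPL10 (AT5G13510), the anchor of the stalk, was at 108 and 180 RPKM, with a ratio of 1.67 (1.57 to 1.77). PRPL11 (AT1G32990), at the base of the stalk, was at 92.4 and 166 RPKM, with a ratio of 1.79 (1.68 to 1.91). On the opposite side of the subunit, PRPL1 (AT3G63490), which forms the arm beside the exit site for transfer RNA, was at 254 and 348 RPKM, with a ratio of 1.37 (1.33 to 1.42). PRPL9 (AT3G44890), near that arm, was at 100.3 and 152 RPKM, with a ratio of 1.52 (1.42 to 1.63).

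PRPL5 and PRPL18 bind the 5S rRNA in bacteria, and they differed in ratio. PRPL5 (AT4G01310) was the most abundant gene of the list at normal CO2, at 325 RPKM, and stood at 365 RPKM at low CO2. Its ratio of 1.12 (1.08 to 1.16) was the lowest among the 38 higher genes, and it was 7th in level at low CO2. PRPL18 (AT1G48350) was at 125 and 215 RPKM, with a ratio of 1.73 (1.62 to 1.84), and the intervals of both genes did not overlap. PRPL27 (AT5G40950), which reaches toward the site of peptide bond formation in Escherichia coli, was at 161 and 305 RPKM, with a ratio of 1.90 (1.81 to 2.00). PRPL31 (AT1G75350), a contact with the small subunit in bacteria, was at 248 and 400.3 RPKM, with a ratio of 1.62 (1.54 to 1.70).

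Genes for proteins around the exit of the tunnel were spread over the list in ratio. PRPL29 (AT5G65220), next to the exit, was at 299 and 374 RPKM, with a ratio of 1.25 (1.20 to 1.31). PRPL24 (AT5G54600), an early assembly protein of the bacterial subunit that also lies near the exit, was at 200.5 and 321 RPKM, with a ratio of 1.60 (1.53 to 1.68). PRPL17 (AT3G54210), also near the exit, was higher than both in ratio, at 188 and 370.3 RPKM and 1.97 (1.88 to 2.06), just short of 2-fold.

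PRPL19, at the face that meets the small subunit, has a pair of genes that stood lowest among the large subunit genes at low CO2. At normal CO2 PRPL19.2 was the lowest of them, while PRPL19.1 lay above PRPL15 and PRPL4. PRPL19.1 (AT5G47190) was at 81.3 and 108.9 RPKM, with a ratio of 1.34 (1.25 to 1.44), and PRPL19.2 (AT4G17560) at 61.2 and 109.0 RPKM, with a ratio of 1.78 (1.65 to 1.93). In level the pair thus differed at normal CO2 and lay side by side at low CO2. Their coding sequences are identical at 81.9% of 675 aligned bases, with a longest identical run of 43 bases. Summed, their ratio of read shares was 1.53 (1.45 to 1.61).

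The other 6 large subunit genes encode proteins that bind the large rRNA and lay between ratios of 1.56 and 1.90. PRPL34 (AT1G29070), at 121 and 230 RPKM, and PRPL28 (AT2G33450), at 130 and 247 RPKM, had ratios of 1.90 (1.78 to 2.03) and 1.89 (1.77 to 2.02). PRPL13 (AT1G78630) was at 126 and 215 RPKM, with a ratio of 1.70 (1.61 to 1.80). PRPL35 (AT2G24090) was at 179 and 296 RPKM, with a ratio of 1.65 (1.56 to 1.75). PRPL3 (AT2G43030), whose bacterial relative lies near the site of peptide bond formation, was at 114 and 185 RPKM, with a ratio of 1.62 (1.54 to 1.71). PRPL6 (AT1G05190), near the base of the factor-binding stalk, was at 239 and 373 RPKM, with a ratio of 1.56 (1.5 to 1.63).

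Within the list the order of levels was largely kept between the columns, with a Spearman's rho of 0.859 across the 39 genes. It is given as a description, since genes are not replicates and all were read from the same columns. From the lowest to the highest of all 39 genes the levels spanned 33.1-fold at normal CO2 and 54.0-fold at low CO2. Without PSRP3/2, left out after its values were seen, they spanned 5.30-fold at normal CO2 and 4.08-fold at low CO2. The upper quartile was 2.09 times the lower quartile at normal CO2 and 1.75 times at low CO2. Across those 38 genes the ratio had a rho of -0.422 with the geometric mean level of both columns and of 0.0149 with the coding length. Across all 39 genes these were -0.316 and 0.0417. The gene ranked first at normal CO2, PRPL5, had the lowest ratio of the 38 genes. The 3 genes with the highest ratios were ranked 36th, 29th and 35th in level at normal CO2. The level at normal CO2 is the denominator of the ratio, so the ratio and that level are not independent.

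The cytosolic ribosome, which translates nuclear messages, gave a comparison in another compartment. Of 46 listed genes for its proteins, a selection and not the full set, 45 were in the table and 44 were counted. None was past 2-fold upward, against 6.07% of all counted genes, and 1 was past it downward, against 11.1%. The other 43 lay within 2-fold. Of the 44 genes 20 were higher and 24 lower at low CO2, against 45.6% and 54.4% of all counted genes. The counting interval lay above 1 for 11 genes and below 1 for 19, against 31.9% and 40.2% of counted genes with reads. The median log2 difference was -0.05, which turned to 0.01 after median scaling and 0.02 after quantile normalization.

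RPS9C (AT5G39850), the gene past 2-fold, was at 21.6 RPKM under normal CO2 and 6.96 RPKM under low CO2, a ratio of 0.322 (0.252 to 0.408). It is one of the genes for a small subunit protein, and its more abundant partner RPS9B (AT5G15200), named after its values were seen, was at 396 and 327 RPKM, with a ratio of 0.824 (0.788 to 0.862). Cytosolic ribosomal proteins come from families of similar genes, so reads may be split between copies. Summed over the list, the cytosolic genes stood at 6783 RPKM under normal CO2 and 6245 RPKM under low CO2. The summed RPKM of the plastid ribosomal list was 0.849 times that of the cytosolic list at normal CO2 and 1.59 times at low CO2.

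**Figure D3:**
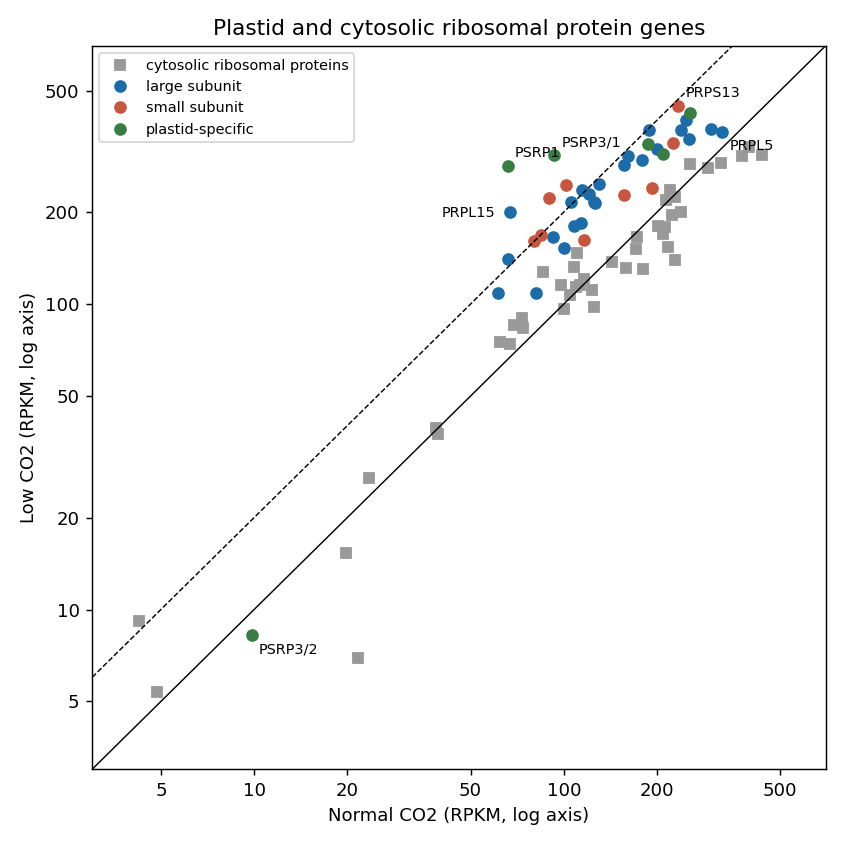
RPKM at low CO2 against RPKM at normal CO2 (both log axes) for the 39 plastid ribosomal protein genes, coloured by role, and 44 cytosolic ribosomal protein genes (grey squares), with a solid line at equal levels and a dashed line at 2-fold higher. The plastid genes lie above the solid line except PSRP3/2, while the cytosolic genes lie on both sides of it, 20 above and 24 below.

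Other genes of plastid translation were nearer to equal levels, though most were also higher at low CO2. The factors that start, extend and end translation in the plastid had 1 of 10 genes past 2-fold upward, against 6.07% of all counted genes. None was past it downward, against 11.1%, and the median log2 difference was 0.20. The counting interval lay above 1 for 8 of these genes, against 31.9% of counted genes with reads, and below 1 for 1, against 40.2%. Their ratio of read shares was 1.20 (1.18 to 1.21). IF3-SVR9L (AT4G30690), an initiation factor of the IF3 type, was at 56.1 and 118 RPKM, 2.1-fold higher (1.96 to 2.26). The elongation factor gene EF-Tu (AT4G20360), the most abundant of these genes, was at 455 and 626 RPKM, with a ratio of 1.38 (1.35 to 1.41). IF2 (AT1G17220), another initiation factor, was the gene of this list whose interval lay below 1, at 124 and 114 RPKM and a ratio of 0.918 (0.890 to 0.946). EF-Tu and IF2 were named after their values were seen.

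Genes for the assembly of the plastid ribosome and the maturation of its rRNA went both ways. Of 17 listed genes 16 were in the table and were counted. At low CO2 10 were higher and 6 lower, against 45.6% and 54.4% of all counted genes. Past 2-fold upward was 1 gene, against 6.07%, and none was past it downward, against 11.1%. The median log2 difference was 0.12. The counting interval lay above 1 for 8 and below 1 for 2 of the 15 genes with recovered reads, against 31.9% and 40.2%. Their ratio of read shares was 1.34 (1.31 to 1.36). CGL20A (AT2G17240), a factor of large subunit assembly, was at 31.1 and 105 RPKM, 3.38-fold higher (2.98 to 3.84). Among those within 2-fold, named after their values were seen, CRASS (AT5G14910), a protein bound to the small subunit, had a ratio of 1.96 (1.84 to 2.08) and the RNA helicase gene RH3 (AT5G26742) 1.66 (1.61 to 1.71). RNE (AT2G04270), the plastid ribonuclease E, was at 22.2 and 16.1 RPKM, with a ratio of 0.724 (0.660 to 0.794).

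**Figure D4:**
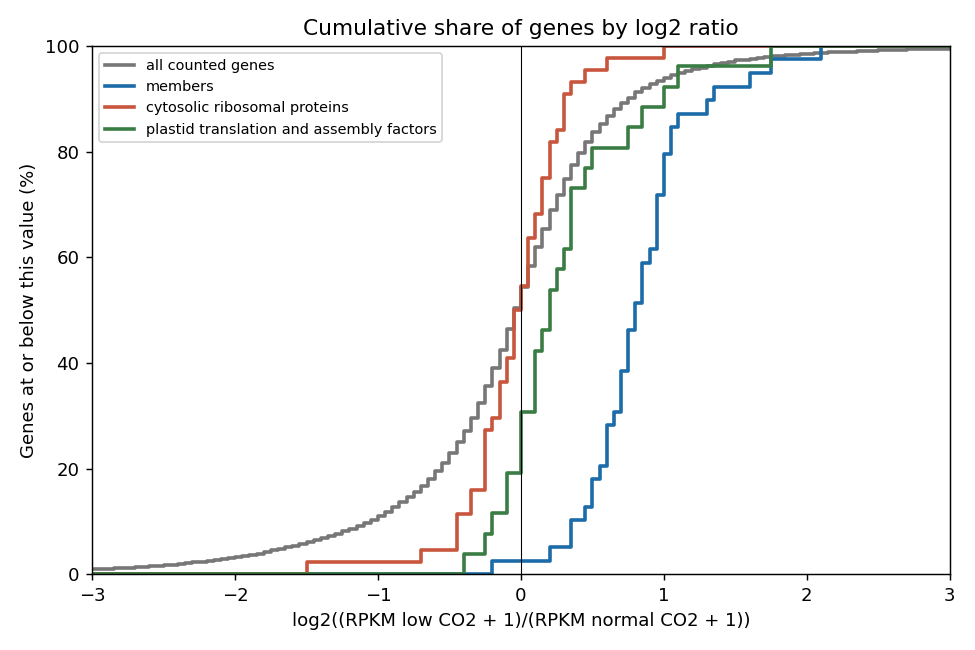
Cumulative percent of genes (vertical axis) at or below a log2 difference on the RPKM + 1 scale (horizontal axis) for all counted genes, the 39 plastid ribosomal protein genes, 44 cytosolic ribosomal protein genes and 26 plastid translation and assembly factor genes. The curve of the plastid ribosomal proteins lies to the right, with a median of 0.78, while the cytosolic curve crosses its median at -0.05, close to that of all counted genes at -0.06.

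The ribosomal proteins that the plastid genome encodes could be followed only in part. Of 26 such loci 11 were in the table, of which 6 were listed at 0 in both columns and 5 were counted. RPS15 (ATCG01120) was at 356 RPKM under normal CO2 and 547 RPKM under low CO2, a ratio of 1.53. RPL32 (ATCG01020) was at 145 and 170.5 RPKM, with a ratio of 1.18, and RPL33 (ATCG00640) at 40.1 and 65.5 RPKM, with a ratio of 1.63.

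The 2 remaining plastid-encoded genes stood very low for this genome. RPS18 (ATCG00650) was at 4.02 and 8.59 RPKM, with a ratio of 2.14, and RPS16 (ATCG00050) at 1.83 and 2.51 RPKM, with a ratio of 1.37. All 5 were higher at low CO2, against 45.6% of all counted genes, and lay within 2-fold on the RPKM + 1 scale. How fully these libraries captured transcripts of the plastid genome was not tested. The ratios of these genes are therefore given as values of the columns only, not as differences in transcript abundance. Reads could not be recovered for them, so no counting interval is given. The 6 genes listed at 0 lie in the inverted repeat of the plastid genome, and an exact 0 does not show that a gene was silent, since the estimate may have failed.

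Counting without known strand limits single values. In the reference annotation 17 of the 39 genes overlap another gene, 8 have coding bases under another gene's span and 1 (PRPL18) shares coding bases with another gene's coding bases. The antisense neighbours of the genes with the 3 highest ratios were lower than the genes themselves at low CO2: AT5G24500 beside PSRP1 was at 27.6 and 33.4 RPKM, AT1G68585 beside PSRP3/1 at 33.2 and 63.9 RPKM, and AT3G25910 beside PRPL15 at 66.5 and 78.6 RPKM. At normal CO2 AT3G25910 stood close to PRPL15 itself, at 67.2 RPKM, while the neighbours of PSRP1 and PSRP3/1 were lower than those genes. For PSRP1, PSRP3/1 and PRPL15 the coding bases lie outside the neighbour's span. PRPS6 has 9 coding bases under the span of its antisense neighbour AT1G64520, which was at 87.7 and 85.6 RPKM. At normal CO2 that neighbour stood above PRPS6 itself, at 84.5 RPKM. RPL12-B (AT3G27840), which lies between PRPL12A and PRPL12C and is not on the list, was listed at 0 in both columns.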

How the data were processed

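Per the labels' protocols, RNA was extracted with a PureLink kit and sequenced from TruSeq RNA libraries (version 2). FastQC, TopHat and Cufflinks are the tools named, per the submitters' processing notes. The genome build, annotation, strand setting, tool versions and any pooling are not given in the sources used here. RPKM values were deposited by the authors in 1 column per CO2 level, with no single replicates, and a column stands for its group as the authors' value.

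The RPKM values were turned back into whole reads with the coding length of each locus, shortened by the 3 bases of its stop codon, and the depth that made most values whole. Whole reads, within 0.0001, came out in both columns for 20247 (96.4%) of the 21010 genes not at 0 throughout. They included all 39 members in the table. Coding lengths, products, overlaps and pair identities came from the RefSeq annotation of TAIR10.1. It was matched by locus, and 25793 listed loci matched. Since no build is stated, coordinates and sequences are left out.

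Ratios carry Clopper-Pearson 95% intervals of the share of a gene's reads that lay in the low CO2 column, scaled by the depths. They cover counting error only and compare the columns, not the conditions. PCR reads without molecular identifiers are not independent molecules. Log2 differences use a pseudocount of 1 RPKM, which understates changes of low genes. No test was run because the columns hold no replicate values. The planned pseudocounts, filters and scalings were tried. Read recovery and the size rule were tested on simulated data.

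The genes named were all members, then of each other list those past 2-fold (up to 4) or the 2 most abundant, and plastid-encoded genes by their values. Members and lists were chosen with earlier results of these data known. Computation used Python 3.11.15, pandas 2.3.3, scipy 1.17.1 and Biopython 1.88.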

Additional observations from a re-analysis of the deposited data

How the results depend on the processing

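Under pseudocounts of 0.1 and 5 RPKM, no filter, a filter at 5 RPKM, median scaling and quantile normalization, 38 of the 39 members stayed higher at low CO2 and none reached 2-fold lower. The count at least 2-fold higher was 8 and ranged from 7 to 11, the highest under median scaling and quantile normalization. The share of all counted genes moved as well, from 6.07% in the main setting to 6.71% under median scaling and 7.23% under quantile normalization. It was 4.07% with a pseudocount of 5 RPKM and 7.26% with 0.1 RPKM. The median log2 difference of the members ranged from 0.76 to 0.84, and was 0.76 without PRPL12A and PRPL12C. The median of the cytosolic list changed sign under both scalings (0.01 and 0.02, from -0.05). An alternative for the interval count (median scaling) and 1 that left out RPS9C were chosen after seeing the data, and gave 38 members above 1 and a cytosolic median of -0.05. No paired analysis was possible because the table holds 1 column per CO2 level, and for the same reason no replicate could be left out. Depth limits PSRP3/2, with 137 and 99 reads.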
